A study of Mus musculus with 12 samples.

Results

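Nr3c1, Tsc22d3, Fkbp5, Txnip, Stk11, Prkaa1, Cnr2, Per1 and Zfp36l2 were followed in mouse pre-B cells with and without BCR-ABL1. These 9 genes of the glucocorticoid response and of the control of energy supply were taken by symbol from a count table of 51826 genes. All 9 were present once, and all 9 were among the 15038 genes that passed the filter on low counts. The samples were 12 lines of bone marrow-derived cells, labelled pro- and pre-B cells, from 2 mice of the strain C57BL/6. Marrow was grown with interleukin 7 (IL7) for 7 days, transduced with a retroviral vector and kept with IL7 for another 48 h. The 6 EV lines carried the empty vector, stayed in IL7 and were sorted for GFP. The 6 BCR-ABL1 lines carried the fusion kinase of Philadelphia chromosome-positive leukemia, and their IL7 was taken away for 1 week. Each mouse gave 3 lines of either kind, named 1A to 1C and 2A to 2C. BCR-ABL1, loss of IL7 and the GFP sort, which is named for EV lines only, therefore cannot be told apart in these lines, and no condition holds BCR-ABL1 with IL7 or EV without it. No hormone was given in the labelled protocols.

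The glucocorticoid receptor, encoded by Nr3c1, is held ready in the cytoplasm by Hsp90 and co-chaperones such as Fkbp5, enters the nucleus when it binds hormone, and switches genes on and off. In lymphoid precursors this receptor is known for the growth arrest and death that make glucocorticoids a mainstay of leukemia treatment, and Tsc22d3 (GILZ), Fkbp5, Per1, Zfp36l2 and Txnip are among the genes it is known to induce. The kinase LKB1, encoded by Stk11, activates AMPK, whose catalytic subunit alpha 1 is encoded by Prkaa1, when cellular energy is low. Txnip lowers glucose uptake, and Cnr2 encodes the cannabinoid receptor CB2, found mainly on immune cells.

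Levels are given as CPM, counts scaled by TMM to libraries of equal size, and in the order EV 1A, 1B, 1C, 2A, 2B, 2C and then the same for BCR-ABL1. A gene was called different when edgeR's glmTreat, which asks for a change beyond 1.5-fold, gave an FDR (Benjamini-Hochberg adjusted p over the 15038 genes) under 0.05. Standard errors are those of the difference in mean log2 CPM, with n = 6 lines per condition. Since lines of one mouse share a donor, p-values measure the spread between lines more than that between animals. Total counts per line ran from 34791011 (EV 2A) to 66011225. EV lines 2A and 2B stood apart, with 7.84% and 6.36% of their counts on the small nuclear RNA Rn7sk, where the most abundant gene took 1.57% to 3.46% in the other 10 lines, and EV 2C differed from both in several of the genes below. Although its total was the lowest, EV 2A had 22881 genes above 3 counts, against 16543 to 18594 in the other lines. All 12 B lineage markers examined were above 3 counts, and their summed level was 2630 to 4780 CPM over the EV lines and 2942 to 3927 over the BCR-ABL1 lines. Only Dntt among these 12 was called, as higher (log2 fold change 4.30, FDR 0.040). No EV line exceeded 18.5 CPM of Dntt, whereas the lowest BCR-ABL1 line had 31.6 CPM and the highest 179 CPM. The sum therefore does not show that each marker was alike in both conditions. Summed myeloid markers did not exceed 1.72 CPM and mast cell markers 0.307 CPM in any line, both highest in EV 2A. Summed T and NK markers were 11.2 to 42.0 CPM over the EV lines and 0.685 to 4.77 over the BCR-ABL1 lines, in EV lines nearly all of it Trac. Trac and Cd3d were the 2 of these 10 markers called lower, Cd3d from 0.234 to 0.644 CPM in EV to 0.0304 to 0.116 CPM in BCR-ABL1 lines (log2 fold change -2.67, FDR 0.00051). Klrb1c reached 1.07 CPM in EV and 3.68 CPM in BCR-ABL1 lines, and the other 7 markers were at no more than 0.215 CPM in any line. Erythroid markers summed to 1.26 to 6.79 and 5.94 to 12.7 CPM, mostly Hbb-bt, which was called higher (log2 fold change 1.72, FDR 0.030). Stromal and endothelial markers summed to 32.7 to 172 and 82.1 to 102 CPM, almost entirely Pecam1. The part of these other-lineage transcripts in the results was not tested. In bulk RNA, fewer cells with a transcript and less of it per cell cannot be told apart.

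Of the 9 genes, Fkbp5 was higher in BCR-ABL1 lines, Nr3c1, Per1 and Zfp36l2 were lower, and Tsc22d3, Txnip, Stk11, Prkaa1 and Cnr2 were not called. This is 1 gene higher, against 5.99% of all tested genes, and 3 lower, against 6.49%, so that 4 of 9 were called where the background in either direction was 12.5%. The genes were chosen with earlier results of these data known, so these shares describe them and test nothing. By the test against no change at all, 5 of the 9 passed, against 48.5% of all genes. The EV and BCR-ABL1 lines did not overlap for 5 genes, the same 4 and Prkaa1, against 25.6% of tested genes.

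**Figure D1:**
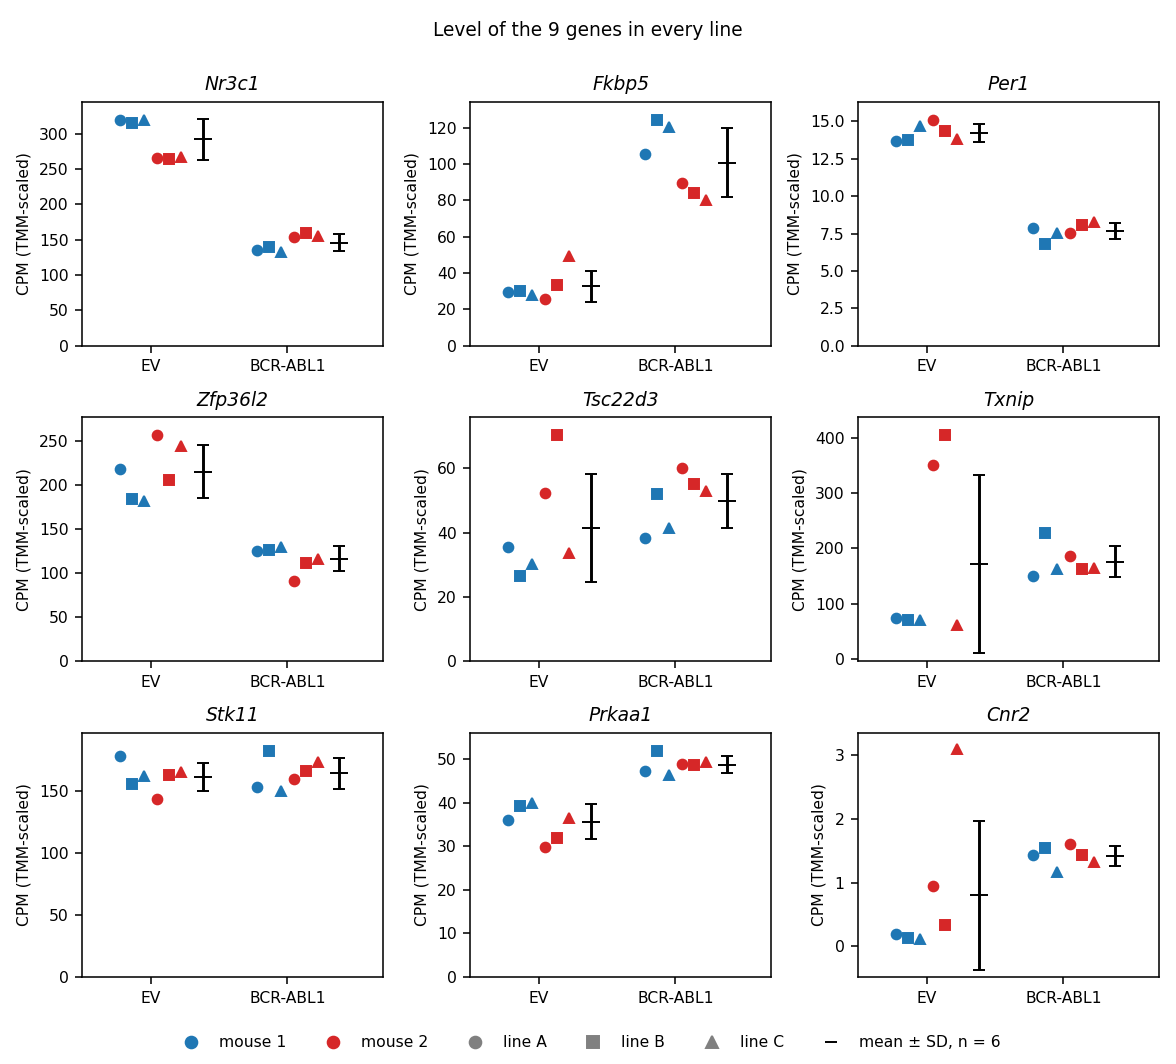
Level of each gene in every line, in CPM after TMM scaling on linear axes; colours mark the mouse, symbols the line letter, and black bars the mean ± SD of 6 lines. EV and BCR-ABL1 points are separate for Nr3c1, Fkbp5, Per1, Zfp36l2 and Prkaa1, while Txnip in EV lines 2A and 2B (351 and 405 CPM) lies above all other lines and Cnr2 in EV 2C (3.10 CPM) above all others.

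Promoter windows show where the induced genes are alike and where they differ in letters known for this response. RefSeq windows on GRCm38.p6 run from 250 bases before to 50 after a transcript start and were examined for 7 of the 9 genes. No window of Nr3c1 or Zfp36l2 was in the set used, so the letters near their starts were not examined. Shares of all windows refer to the 32851 windows of this set, which does not cover every gene. The full glucocorticoid response palindrome, AGAACA, 3 letters of any kind and TGTTCT, was searched on both strands. It stood in no window of the 7 genes, as in nearly all of the 32851 windows (present in 0.00913%). Its shorter core ACANNNTGT was in 1 window of the 7 genes, that of Txnip (6.85% of all windows). The E-box CACGTG, the letters known to bind the clock factors CLOCK and BMAL1 as well as MYC, was in a window of Per1, 166 bases before the start, and in that of Fkbp5, 169 bases before it (7.15% of all windows). A single half-site TGTTCT was in 1 of 3 windows of Tsc22d3 (19.0% of all windows). Capitals mark the E-box in Per1 and Fkbp5, the core palindrome in Txnip and the half-site in Tsc22d3, each printed in the direction of transcription:
Per1, chr11:69098699-69098998, plus strand: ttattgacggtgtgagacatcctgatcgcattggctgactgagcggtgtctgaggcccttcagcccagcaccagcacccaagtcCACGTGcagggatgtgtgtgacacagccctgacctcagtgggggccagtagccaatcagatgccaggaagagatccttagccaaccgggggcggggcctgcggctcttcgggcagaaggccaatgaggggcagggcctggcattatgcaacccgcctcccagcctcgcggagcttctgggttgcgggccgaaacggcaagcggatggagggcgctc
Fkbp5, chr17:28486100-28486399, minus strand: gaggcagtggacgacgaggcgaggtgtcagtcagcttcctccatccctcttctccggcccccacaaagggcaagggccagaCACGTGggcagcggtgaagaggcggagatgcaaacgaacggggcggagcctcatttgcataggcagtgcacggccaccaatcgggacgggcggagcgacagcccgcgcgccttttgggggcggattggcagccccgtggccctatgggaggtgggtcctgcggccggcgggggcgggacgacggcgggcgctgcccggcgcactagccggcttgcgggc
Txnip, chr3:96557707-96558006, plus strand: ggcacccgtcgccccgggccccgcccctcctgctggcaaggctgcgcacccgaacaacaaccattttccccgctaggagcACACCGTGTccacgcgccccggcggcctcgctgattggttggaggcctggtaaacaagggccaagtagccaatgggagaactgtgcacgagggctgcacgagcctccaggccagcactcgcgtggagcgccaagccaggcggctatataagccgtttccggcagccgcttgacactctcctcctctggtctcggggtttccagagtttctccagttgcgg
Tsc22d3, chrX:140600473-140600772, minus strand: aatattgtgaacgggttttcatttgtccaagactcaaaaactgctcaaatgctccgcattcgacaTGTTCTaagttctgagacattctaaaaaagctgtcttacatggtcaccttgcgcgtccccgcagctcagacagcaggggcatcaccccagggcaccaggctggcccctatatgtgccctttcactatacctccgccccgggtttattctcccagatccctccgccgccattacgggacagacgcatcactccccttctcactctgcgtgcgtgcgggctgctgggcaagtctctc
Per1 and Fkbp5 both carried the E-box at a similar distance, and the former was lower and the latter higher in BCR-ABL1 lines. The CCAAT box, which 37.4% of windows hold, occurred 3 times in the Per1 window shown, 3 times in that of Stk11 and a pair of times each in those of Fkbp5 and Txnip. A match is a description of the letters and not a bound site, and distal elements lie outside these windows.

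Nr3c1 lies on the minus strand of chromosome 18 at 39410545 to 39519421 (GRCm38). Its levels were 320.1, 315, 319, 266, 265 and 267 CPM in EV lines, and 136, 139, 132, 153, 159 and 156 CPM in BCR-ABL1 lines. Lines of one mouse lay close together, and the EV lines of mouse 1 were the highest while the BCR-ABL1 lines of mouse 1 were the lowest. The receptor transcript was thus 2.00-fold lower in BCR-ABL1 lines (log2 fold change -1.0001, SE 0.07, FDR 0.00048). In mouse 1 the log2 fold change was -1.22 (FDR 3.7e-07) and in mouse 2 it was -0.75 (FDR 0.13), and this difference between the mice passed the interaction test (0.46 on the log2 scale, FDR 0.0043). It passed the same test with any one line left out, with FDR values up to 0.024. Nr3c1 ranked above 92.2% of tested genes by level per exon length in EV lines and above 81.9% in BCR-ABL1 lines.

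The mineralocorticoid receptor Nr3c2, the closest relative of Nr3c1, which also binds glucocorticoids, was called lower as well. It was at 23.0, 17.1 and 18.5 CPM in the EV lines of mouse 1 but at 1.44, 1.11 and 0.433 CPM in those of mouse 2. The BCR-ABL1 lines lay between 0.188 and 0.623 CPM, so that they overlapped EV 2C and no other EV line. The fitted log2 fold change of -4.71 (FDR 0.0067) therefore rested mainly on mouse 1, where it was -6.22, against -0.88 in mouse 2, and the interaction passed (5.35, FDR 0.00011).

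Fkbp5, the co-chaperone that lowers the receptor's affinity for hormone and is itself a known receptor target, was the member with the clearest rise. The gene occupies 28399094 to 28517527 on the minus strand of chromosome 17. It was at 29.5, 30.1, 27.7, 25.9, 33.4 and 49.1 CPM in EV lines and at 106, 124, 120.4, 89.3, 84.3 and 80.04 CPM in BCR-ABL1 lines. The lowest BCR-ABL1 line was above the highest EV line, EV 2C, and BCR-ABL1 lines of mouse 1 were all above those of mouse 2. The change was 3.08-fold (log2 fold change 1.63, SE 0.17, FDR 0.00029). It was 2.01 in mouse 1 and 1.23 in mouse 2, the latter with an FDR of 0.0745, and the difference between the mice had an FDR of 0.059. Fkbp4, the related co-chaperone that helps to carry the receptor to the nucleus, had a log2 fold change of 0.28 (SE 0.18, FDR 1), with EV lines spread over 153 to 383 CPM around BCR-ABL1 lines at 299 to 326 CPM.

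The list of the receptor machinery held 24 genes, of which 23 were tested. Of these, 2 were higher (5.99% of all tested genes were) and 3 were lower (6.49%). The median log2 fold change was 0.14 against -0.02 over all tested genes. Beside Fkbp5, Hsd11b1 was higher. Its product regenerates active glucocorticoid within cells, and it went from a range of 0.520 to 1.37 CPM in EV to one of 2.21 to 7.08 CPM (FDR 0.0015). The log2 fold change was 3.29 in mouse 1 and 1.33 in mouse 2 (FDR 0.14), and the interaction passed (FDR 0.0049). Nr3c1, Nr3c2 and Ncoa1 were lower. Ncoa1, a coactivator of nuclear receptors, was at 38.6 to 51.1 CPM over the EV lines and 21.9 to 28.2 over the BCR-ABL1 lines (log2 fold change -0.88, SE 0.08, FDR 0.0062, and 0.056 without the filter on low counts). Of the 11 tested heat shock proteins and co-chaperones of the list other than Fkbp5, glmTreat called 0, with 0 at an unadjusted p under 0.05 and 0 called by DESeq2. All of these tests ask for a change beyond 1.5-fold. Against no change, all but Dnaja1 (FDR 0.26) and Fkbp4 (FDR 0.18) passed (FDR 0.0028 to 0.046), where 48.5% of all genes did. Of those passing, Dnajb1 was lower (log2 fold change -0.22) and the others higher (0.30 for Bag1 to 0.70 for Hspa4). Dnaja1, Dnajb1, Bag1 and Hspa4 were named after their values were seen. Within the FKBP immunophilins, 10 of 15 genes were tested. Fkbp5 and Fkbp11 were higher, against 5.99% of all tested genes. Fkbpl was lower (log2 fold change -1.12, SE 0.16, FDR 0.012, and 0.052 without that filter), against 6.49%. Fkbp11 was at no more than 0.924 CPM in any line.

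Per1, a core repressor of the circadian clock and an early receptor target, spans 69095217 to 69109960 on the plus strand of chromosome 11. EV lines were at 13.7, 13.8, 14.7, 15.1, 14.3 and 13.8 CPM, and BCR-ABL1 lines at 7.87, 6.79, 7.57, 7.51, 8.09 and 8.26 CPM. Both groups were narrow, neither mouse stood out, and the groups did not overlap. Per1 was 1.85-fold lower in BCR-ABL1 lines (log2 fold change -0.89, SE 0.05, FDR 0.0043). It was -0.91 in mouse 1 (FDR 0.0020) and -0.84 in mouse 2 (FDR 0.13), with an interaction FDR of 0.83. The call was lost with mouse 2 alone and without the filter on low counts (FDR 0.087 without the filter).

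The relatives of Per1 gave other patterns. Per2 had a log2 fold change of -0.14 (SE 0.26, FDR 1), with EV 2C highest of all 12 lines at 19.2 CPM. Per3 had one of -1.06 (SE 0.47, FDR 0.24). It was at 20.4 to 20.7 CPM in the EV lines of mouse 1, at 4.94, 3.60 and 12.2 CPM in those of mouse 2 with BCR-ABL1 lines at 5.58 to 8.07 CPM. Among 21 clock genes, 17 were tested, with a median of -0.05. Of these, 3 were higher, against 5.99% of all tested genes, and only Per1 was lower, against 6.49%. Csnk1e, a kinase that marks PER proteins for degradation, ranged over 2.33 to 7.47 CPM in EV and, in BCR-ABL1 lines, over 9.12 to 30.03 CPM (log2 fold change 1.97, SE 0.46, FDR 0.016), more so in mouse 2 (3.18) than in mouse 1 (0.55, interaction FDR 0.00021). Clock, the activator that PER proteins restrain, was between 0 and 6.04 CPM in EV and between 25.1 and 45.4 CPM in BCR-ABL1 lines (FDR 0.035). Its EV lines were at 0 to 0.0753 CPM in mouse 1 and at 1.33 to 6.04 CPM in mouse 2 (interaction FDR 0.00021). Its call ended when any one BCR-ABL1 line was left out (FDR 0.054 to 0.067) and with DESeq2 (FDR 0.059). Nfil3, a repressor of clock output, was at 0.417 to 0.793 and 1.00 to 1.79 CPM (FDR 0.0086).

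Zfp36l2 encodes an RNA-binding protein that promotes decay of transcripts with AU-rich elements and holds developing B cells in quiescence. It lies at 84183931 to 84187947 on the minus strand of chromosome 17. Its levels were 218, 184, 182, 256, 206 and 244 CPM in EV lines and 125, 126, 130.0, 91.2, 111 and 116 CPM in BCR-ABL1 lines. The groups did not overlap, but in mouse 2 they lay further apart than in mouse 1. Zfp36l2 was 1.85-fold lower (log2 fold change -0.88, SE 0.11, FDR 0.020), with -0.61 in mouse 1 (FDR 0.43) and -1.14 in mouse 2 (FDR 0.026). The interaction had an FDR of 0.048 and passed with only 3 of the 12 lines left out in turn, with FDR values up to 0.12. The call itself ended with EV 1A left out (FDR 0.051), with DESeq2 (FDR 0.15), with the line number as replicate block (FDR 0.067) and without the filter on low counts (FDR 0.067).

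The ZFP36 family had 3 tested genes of 4, of which 2 were lower, against 6.49% of all tested genes. Zfp36 (tristetraprolin) was at 36.7 to 108 CPM over the EV lines and 24.5 to 30.7 over the BCR-ABL1 lines, without overlap (log2 fold change -1.27, SE 0.24, FDR 0.012). Zfp36l1 was not called (log2 fold change -0.45, SE 0.16, FDR 1), although EV lines 2A and 2B were the highest of all lines at 93.4 and 99.4 CPM. The antisense transcript AC132455.1 overlaps 105 bases of Zfp36l2 exons, Gm44710 overlaps 125 of Zfp36 and Gm26669 overlaps 1672 of Zfp36l1, all on the other strand, and the strand setting of the counting is not given in the sources used here.

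Tsc22d3 encodes GILZ, a leucine zipper protein that mediates anti-inflammatory effects of glucocorticoids. It lies at 140539528 to 140600659 on the minus strand of chromosome X. EV lines were at 35.6, 26.7, 30.3, 52.3, 70.3 and 33.7 CPM and BCR-ABL1 lines at 38.4, 52.0, 41.4, 60.1, 55.2 and 52.9 CPM. EV 2B was the highest of all 12 lines and EV 2A lay within the BCR-ABL1 range, whereas the other 4 EV lines were below every BCR-ABL1 line. The log2 fold change was 0.27 (SE 0.24, FDR 1), and no setting called it. The TSC22 family had 4 tested genes and 1 called, against 12.5% of all tested genes in either direction. Tsc22d1 was lower (log2 fold change -2.22, SE 0.54, FDR 0.039), with EV 2C at 42.1 CPM, the other EV lines at 3.00 to 7.33 CPM and BCR-ABL1 lines at 2.09 to 2.93 CPM. Without EV 2C its log2 fold change was -1.16, and the call ended when any one BCR-ABL1 line was left out (FDR 0.065 to 0.084). Tsc22d2 (log2 fold change -0.52, SE 0.08) and Tsc22d4 (-0.40, SE 0.09) did not overlap between conditions but had an FDR of 1 against the 1.5-fold bound.

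Txnip, the thioredoxin-interacting alpha-arrestin that drives glucose transporters from the cell surface, lies at 96557957 to 96561883 on the plus strand of chromosome 3. EV lines were at 73.4, 70.2, 71.0, 351, 405 and 62.2 CPM. BCR-ABL1 lines were at 149, 227, 163, 187, 163 and 165 CPM. EV lines 2A and 2B, the same lines that stood apart in Rn7sk, were above every BCR-ABL1 line, and the other 4 EV lines were below every one. The fitted log2 fold change was 0.03 (FDR 1), and the difference in mean log2 CPM was 0.52 (SE 0.53). In mouse 1 alone Txnip was higher in BCR-ABL1 lines (log2 fold change 1.34, FDR 0.00014), and in mouse 2 alone the fitted value was -0.65 (FDR 0.97). The difference between the mice was -1.997 with an FDR of 0.070, and without EV 2C it was -2.46 (FDR 1.8e-06). Between the EV lines of the 2 mice the difference was 1.93 (FDR 0.0502), and without EV 2C it was 2.40 (FDR 4.4e-07).

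The exons of Txnip share 606 bases with the antisense gene Gm15441, which had at most 1.15 CPM in any line. Of the 19 genes on thioredoxin, alpha-arrestins and glucose uptake, 16 were tested, with a median of 0.06. By glmTreat 2 were higher and 0 were lower, where 12.5% of all tested genes were called in either direction. At an unadjusted p under 0.05, 0 were lower, and DESeq2 called 0 in either direction. Slc2a1, the glucose transporter GLUT1, was at 10.5 to 15.3 CPM over the EV lines and 20.1 to 29.7 over the BCR-ABL1 lines (log2 fold change 0.90, SE 0.13, FDR 0.039). Txnrd1, the reductase that regenerates thioredoxin, was at 84.8 to 194 and 201 to 275 CPM (log2 fold change 1.06, SE 0.19, FDR 0.028). The call of Slc2a1 ended when EV 1B, 1C, 2A or 2B or BCR-ABL1 2A, 2B or 2C was left out (FDR up to 0.097), and that of Txnrd1 without EV 1A, 1C, 2A or 2B or BCR-ABL1 1A, 1B or 1C (FDR up to 0.059). Arrdc4, the arrestin nearest to Txnip, had at most 4 counts in any EV line and 0 counts in all BCR-ABL1 lines, and was not tested.

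Stk11 (LKB1) lies at 80115803 to 80130682 on the plus strand of chromosome 10. Its levels were 178, 156, 162, 144, 163 and 165 CPM in EV and 153, 182, 149.996, 160.0, 166 and 173 CPM in BCR-ABL1 lines. The groups overlapped almost fully, and the log2 fold change was 0.03 (SE 0.06, FDR 1). Its exons share 232 bases with Cbarp on the other strand. Stradb, a pseudokinase partner of LKB1, did not overlap between conditions (15.4 to 19.1 CPM over the EV lines and 11.0 to 12.8 over the BCR-ABL1 lines) but was not called against the 1.5-fold bound (log2 fold change -0.58, SE 0.06, FDR 0.76).

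Prkaa1 (AMPK alpha 1), at 5143861 to 5181899 on the plus strand of chromosome 15, was at 36.1, 39.3, 40.0, 29.9, 32.0 and 36.5 CPM in EV and at 47.3, 51.9, 46.3, 48.9, 48.6 and 49.4 CPM in BCR-ABL1 lines. Every BCR-ABL1 line was above every EV line, and EV 2A was the lowest. The log2 fold change of 0.45 (SE 0.07) was short of the 1.5-fold bound (FDR 1) and differed from no change (FDR 0.00057). The other catalytic subunit, Prkaa2, was below the filter, with at most 23 counts in a line.

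In the LKB1-AMPK core, 13 of 15 genes were tested and only Camkk2 was called, by glmTreat, with a median of 0.12. Camkk2, the calcium-activated kinase that can activate AMPK in place of LKB1, was at 31.9 to 53.1 CPM over the EV lines and 85.5 to 95.8 over the BCR-ABL1 lines (log2 fold change 1.13, SE 0.10, FDR 0.00041). The log2 fold change was 1.17 in mouse 1 and 1.11 in mouse 2, the latter with an FDR of 0.069. The interaction passed for 2 of the 13 genes, Camkk1 (FDR 0.00041) and Prkag2 (FDR 0.0033), against 16.9% of all tested genes. Camkk1 had a log2 fold change of 2.53 in mouse 1 (FDR 1.1e-06) and 0.34 in mouse 2. Camkk1 and Prkag2 were named after their values were seen. Of the 9 tested kinases of 12 that LKB1 also activates, glmTreat called 0 (median -0.34), and of the 13 tested AMPK substrates of 14 it called 0 (median -0.22). With 12.5% of all genes called, lists this short would hold few calls at the background share. At an unadjusted p under 0.05 these counts were 0 and 1, and DESeq2 called 0 of either list. These counts concern transcripts, and the activity of the kinases was not measured.

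Cnr2 lies at 135895394 to 135920207 on the plus strand of chromosome 4 and was by far the least abundant member. EV lines had 10, 9, 7, 31, 17 and 172 counts, or 0.188, 0.130, 0.107, 0.951, 0.338 and 3.10 CPM. BCR-ABL1 lines had 84, 74, 51, 83, 94 and 64 counts, or 1.42, 1.55, 1.16, 1.598, 1.43 and 1.33 CPM. The BCR-ABL1 lines were alike and lay above 5 of the 6 EV lines, while EV 2C was the highest of all 12. The fitted log2 fold change was 0.82 (FDR 0.90), the difference in mean log2 CPM was 1.75 (SE 0.71), and the exact two-sided permutation test over all labelings gave p = 0.048 (0.035 when lines were exchanged only within a mouse), one of 9 such tests and not adjusted. Without EV 2C the fitted value was 2.12 and was called (FDR 0.019). In mouse 1 it was 3.30 (FDR 6.3e-06) and in mouse 2 it was -0.02. The interaction of -3.31 passed (FDR 0.024), and it passed with 7 of the 12 lines left out in turn, with FDR values up to 0.067. Cnr1, the other cannabinoid receptor, had at most 7 counts in a line. Of 13 genes of the cannabinoid system 10 were tested and glmTreat called 0, with 0 at an unadjusted p under 0.05 and 0 called by DESeq2. With 12.5% of all tested genes called by glmTreat, a list this short would hold few calls at the background share. Of these 10, 4 passed the interaction test, against 16.9% of all tested genes (Cnr2, Gpr18, Faah and Napepld, the last 3 named after their values were seen). Faah was at no more than 1.77 CPM in any line.

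**Figure D2:**
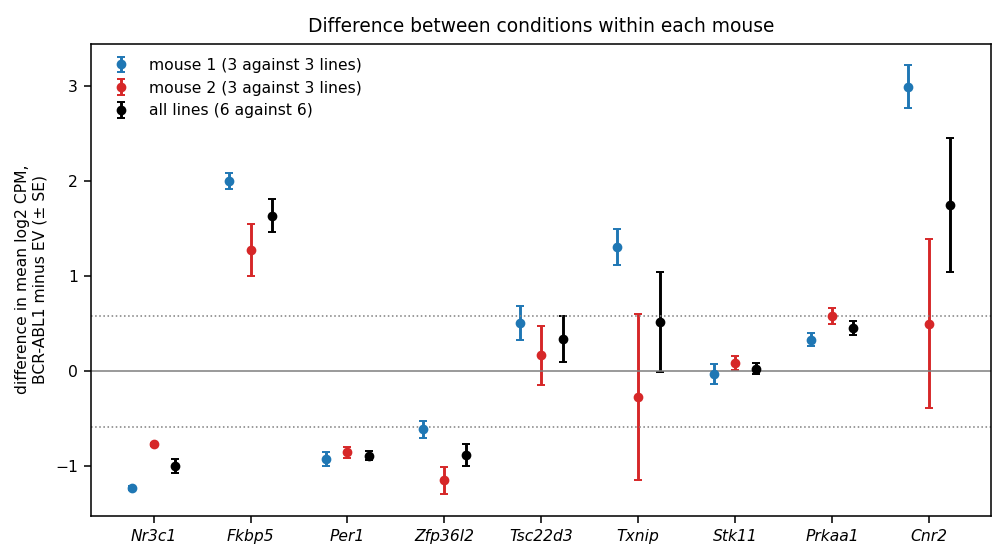
Difference in mean log2 CPM between BCR-ABL1 and EV lines for each gene, within mouse 1, within mouse 2 (n = 3 against 3 lines each) and over all lines (n = 6 against 6), with standard errors; dotted lines mark 1.5-fold. Per1 differs alike in both mice (-0.92 and -0.86), Nr3c1 more in mouse 1 (-1.23 against -0.77), and Txnip and Cnr2 have wide errors in mouse 2 (SE 0.87 and 0.89).

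The interaction of mouse and condition passed for Nr3c1, Cnr2 and Zfp36l2, which is 3 of 9 genes against 16.9% of all tested genes. Tested within a mouse, 5 of the 9 were called in mouse 1, against 28.5% of the genes tested there, and 1 in mouse 2, against 6.64%. Those in mouse 1 were Nr3c1, Per1, Fkbp5, Txnip and Cnr2, and the one in mouse 2 was Zfp36l2. Between EV lines of the 2 mice only Cnr2 was called (log2 difference 3.38, FDR 0.0087), against 10.3% of tested genes. Between the BCR-ABL1 lines of the 2 mice glmTreat called 0 of the 9, against 2.65%, with 0 at an unadjusted p under 0.05. With the line letter as replicate block Nr3c1 alone passed (FDR 0.015), against 14.2% of tested genes, while Cnr2 (FDR 0.0503) and Zfp36l2 (FDR 0.083) did not. With EV 2C left out, 7 of the 9 genes passed the interaction test, all but Per1 and Stk11, and so did 36% of all genes tested then. Without the filter on low counts, the interaction was passed by Fkbp5, Txnip and Cnr2 and by neither Nr3c1 (FDR 0.084) nor Zfp36l2 (FDR 0.21).

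The list of genes known to be induced by glucocorticoids held 28, of which 24 were tested. Of these, 5 were higher (5.99% of all tested genes were), 6 were lower (6.49%) and 13 were not called, and the median was -0.21. The largest fall among its called genes was that of Btg1, an antiproliferative regulator of lymphocytes, from a range of 259 to 354 CPM to one of 72.8 to 112 CPM (log2 fold change -1.82, SE 0.12, FDR 9.5e-06). Il7r and Cxcr4 fell with Per1, Zfp36l2 and Zfp36. Bcl2l11, which encodes the death effector BIM, rose from a range of 30.7 to 44.6 CPM to one of 53.1 to 97.4 CPM (log2 fold change 1.10, SE 0.18, FDR 0.014). Irs2 (0 to 1.61 CPM over the EV lines and 9.65 to 12.9 over the BCR-ABL1 lines, FDR 0.010), Mt1 (0 to 0.301 and 1.16 to 8.53 CPM, FDR 0.0010) and Tgm2 (0.0993 to 0.527 and 0.809 to 4.87 CPM, FDR 0.0099) were also higher. For Irs2 the interaction passed (FDR 0.047), and the gene was not called in mouse 2 alone (FDR 0.11). Mt1 in BCR-ABL1 lines was at 7.68 to 8.53 CPM in mouse 1 and at 1.16 to 1.63 CPM in mouse 2. Dusp1, Klf9, Sgk1 and Ddit4, widely used readouts of the hormone, had log2 fold changes of -0.33, 0.22, -0.91 and 0.25 and were not called. For Sgk1 the mice differed (interaction FDR 0.0033), with 0.05 in mouse 1 and -2.38 in mouse 2, where it was called lower (FDR 0.025). These 4 genes and Irs2, Mt1, Tgm2, Il7r, Cxcr4, Hsd11b1, Nfil3 and Fkbp11 were named after their values were seen.

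**Figure D3:**
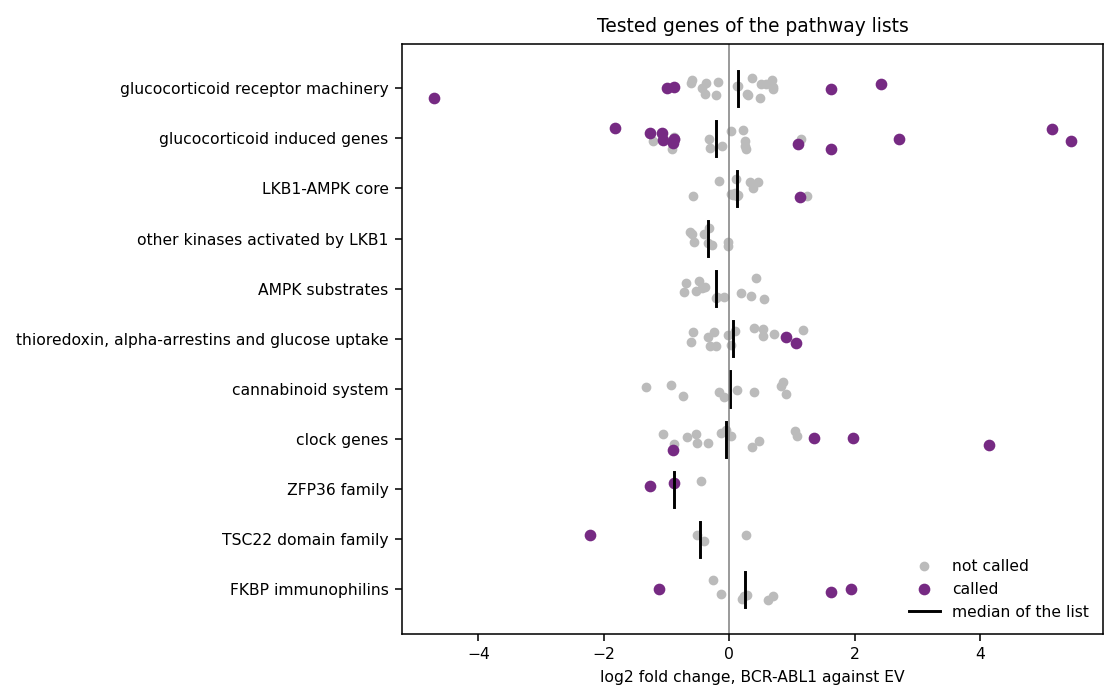
Log2 fold change of each tested gene in the 11 lists, 1 point per gene with vertical jitter only for legibility; purple points were called by glmTreat at FDR under 0.05 and black bars are list medians. Glucocorticoid induced genes spread to both sides of 0 (5 higher and 6 lower of 24).

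Per kilobase of merged exons, the EV means ran from Zfp36l2 at 60.9 CPM per kb (SD 8.66) through Txnip at 55.1 (SD 51.3), Nr3c1 at 38.0 (SD 3.73), Stk11 at 35.2 (SD 2.47), Tsc22d3 at 9.56 (SD 3.84), Prkaa1 at 7.66 (SD 0.861), Fkbp5 at 3.45 (SD 0.894) and Per1 at 2.53 (SD 0.103) to Cnr2 at 0.202 (SD 0.294). Neighbours whose lines overlapped were Zfp36l2 and Txnip, Txnip and Nr3c1, Nr3c1 and Stk11, and Tsc22d3 and Prkaa1. In BCR-ABL1 lines the order was Txnip at 56.3 CPM per kb (SD 8.99), Stk11 at 35.8 (SD 2.68), Zfp36l2 at 33.0 (SD 4.02), Nr3c1 at 19.0 (SD 1.496), Tsc22d3 at 11.5 (SD 1.93), Fkbp5 at 10.6 (SD 2.01), Prkaa1 at 10.5 (SD 0.411), Per1 at 1.36 (SD 0.0929) and Cnr2 at 0.355 (SD 0.0396). There, lines overlapped between Stk11 and Zfp36l2 and among Tsc22d3, Fkbp5 and Prkaa1. The place of Fkbp5 depended on the length used, since its longest transcript has 3858 bases and its merged exons 9468. On the former its level in BCR-ABL1 lines was 26.1 CPM per kb, above the 22.7 of Nr3c1.

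**Figure D4:**
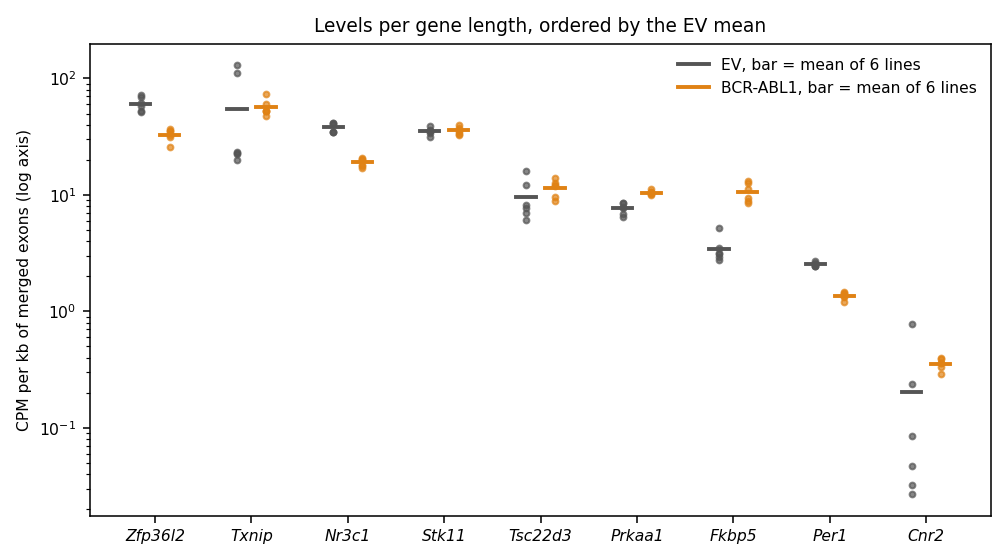
Level of each gene in CPM per kilobase of merged exons on a log axis, in EV and BCR-ABL1 lines, with 1 point per line and bars at the mean of 6 lines. Nr3c1 and Zfp36l2 are lower in all BCR-ABL1 lines, Fkbp5 moves from 3.45 to 10.6 on average, and Txnip and Cnr2 are spread most in EV lines.

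For each member, the tested genes with the most similar pattern over the 12 lines were named by Pearson's r of log2 CPM, where genes averaging under 3 on that scale were left out. The 12 lines share 2 conditions, 2 mice and their libraries, so these values are descriptions. Nr3c1 was followed by Dop1a (r = 0.992) and Atp2b1 (r = 0.990), and Fkbp5 by Zfp961 (r = 0.993) and Ada (r = 0.991). Per1 was followed by Crybg1 (r = 0.984) and Btg1 (r = 0.983), the latter a member of the induced list, and Zfp36l2 by Pkd1 (r = 0.967) and Rela (r = 0.961). Tsc22d3 was nearest to Ctsb (r = 0.980) and Dennd3 (r = 0.969), and Txnip to B3gnt8 (r = 0.965) and Epg5 (r = 0.961). Prkaa1 was nearest to Pcdh9 (r = 0.975) and Alpl (r = 0.973), and Cnr2 to Slc25a1 (r = 0.982) and Ier2 (r = 0.979). Stk11, whose level varied least with condition, had no gene above Limk1 (r = 0.718) and Nfatc2ip (r = 0.703).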

How the data were processed

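Strand-specific total RNA libraries of 12 lines were read paired-end. The authors deposited whole-number counts per gene, unnormalized and unpooled. Per the submitters' processing notes, FastQC 0.11.5, Trimmomatic 0.36, TopHat2 2.1.1, Bowtie2 2.3.2 and featureCounts 1.5.3 were used on GRCm38; strand setting and annotation release are not given in the sources used here. Groups, mice and line letters came from sample names and labels.

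From these counts, TMM-scaled CPM, log2 CPM (prior count 2) and tests were computed in R 4.3.3 with edgeR 4.0.16 (filterByExpr, quasi-likelihood fit, glmTreat at 1.5-fold), limma 3.58.1 and DESeq2 1.42.0, and figures in Python 3.11.15 with matplotlib 3.10.9. Interactions of mouse and condition used glmQLFTest. GENCODE M21 (GRCm38) named 51633 genes. Totals of 34791011 to 66011225 counts per line set the precision. The tests were checked on simulated counts with 200 genes changed 3-fold. Of these, glmTreat of the condition recovered 159, the interaction test 97 and glmTreat between EV lines of the mice 120. Other genes passing numbered 0, 3 and 1.

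The members, the 11 gene lists and the 6 marker lists were chosen with earlier results of these data known. Named genes are the members, 13 relatives, up to 4 called genes per list with the largest change and a mean log2 CPM not under 1, and the 2 most similar genes per member. The digit of a line's name is its mouse. Deviations of EV lines from their condition mean were correlated with those of BCR-ABL1 lines. These correlations were 0.0853 to 0.240 within a mouse and -0.203 to -0.0636 between mice. Lines of the same condition were not compared in this way.

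Alternatives were DESeq2's size factors, no filter on low counts, a CPM minimum of 1 in 6 or more lines, a test against no change, the likelihood ratio fit, DESeq2, mouse or line as replicate block, each mouse alone, and leaving out each line in turn.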

Additional observations from a re-analysis of the deposited data

Results flagged for a closer look

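In groups of 6 lines, the gap of the extreme line to its neighbour over the range was compared with Dixon's critical value of 0.625 for each of the 9 genes in both conditions. Of these 18 groups, 2 exceeded it. About 1 in 20 groups would do so for 6 independent values from 1 normal distribution. The ratio was taken on CPM and not on log2 CPM, and the lines came from 2 mice, so that rate need not hold here. Fkbp5 in EV 2C was at 49.1 CPM, with the other 5 EV lines at 25.9 to 33.4 CPM. Cnr2 in EV 2C was at 3.10 CPM, with the other 5 at 0.107 to 0.951 CPM.

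The effect of the condition differed between the mice (mouse 2 minus mouse 1, interaction test in edgeR) by 0.46 on the log2 scale for Nr3c1 (FDR 0.0043), by -3.31 for Cnr2 (FDR 0.024) and by -0.53 for Zfp36l2 (FDR 0.048). Nr3c1 was lower in BCR-ABL1 lines of both mice, and Zfp36l2 as well. Cnr2 was higher in all 3 BCR-ABL1 lines of mouse 1 than in the EV lines of that mouse, whereas in mouse 2 the BCR-ABL1 lines lay between EV 2A and EV 2C.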

How the results depend on the processing

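Over 22 alternatives for 28 named genes (21 for Nr3c2, which the CPM minimum removed), 537 values kept direction and side of the threshold, 56 lost a call, 10 gained one and 12 changed sign. With mouse as replicate block, the paired fit, the members called remained 1 higher and 3 lower, and that block changed no member's call. With the line number as block Zfp36l2 was not called (FDR 0.067), nor were Nr3c2, Tsc22d1, Slc2a1, Clock and Csnk1e (FDR 0.067 to 0.17). The members higher (1) became 2 against no change, 3 with mouse 1 alone, 0 with mouse 2 alone and 1 to 2 with a line left out, the latter without EV 2C, where Cnr2 was called as well. The members lower (3) became 1 without the filter on low counts and with mouse 2 alone, 2 with mouse 1 alone, DESeq2 or the line number as block, and 2 to 3 with a line left out (2 without EV 1A), each 2 being without Zfp36l2.

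Signs changed only for members and relatives that were not called. Txnip was at -0.65 with mouse 2 alone and at -0.14 to 0.48 with a line left out. Stk11 was at -0.019 with mouse 1 alone and at -0.016 to 0.085 with a line left out. Cnr2 was at -0.018 with mouse 2 alone, and Per2 at 0.23 with mouse 2 alone and -0.24 to 0.039 with a line left out. The 3 members whose change differed between the mice became 1 with the line letter as replicate block and 1 to 7 with a line left out, and Nr3c1 passed in all 12 of these. The 1 member that differed between EV lines of the mice became 2 without the filter and 1 to 3 with a line left out, 3 without EV 2C (Cnr2, Txnip and Tsc22d3). The causes were not tested. Each mouse alone leaves 3 lines per condition. Cnr2, at 7 to 31 counts in 5 EV lines, is the member that depth limits most.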
